A study of Mus musculus with 8 samples.

Results

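The genes described here are 10 mouse genes of the actin cytoskeleton, Actb, Actg1, Cfl1, Cttn, Flna, Actn1, Actn4, Myh9, Tln1 and Vcl, taken by their symbols from a table of 49997 genes. Counts per gene were measured by RNA-seq in 8 libraries of EO771 cells, a mouse mammary carcinoma line that is usually grown in C57BL/6 mice. In the first experiment, cells received 12-HETE, a hydroxy fatty acid made from arachidonic acid by 12-lipoxygenase, at 100 nM for 48 h, or its vehicle, saline with 2% DMSO. The second experiment used cells that carried an empty vector or a vector for overexpression of ADAR1 p150, the long isoform of the RNA-editing enzyme ADAR1. Each of the 4 groups had 2 libraries, named by the replicate numbers in the labels, which are 4 and 5 for vehicle and 12-HETE and 1 and 2 for vector and ADAR1 p150. The comparisons were 12-HETE against vehicle, ADAR1 p150 against vector, the vector group against the vehicle group, and the difference between the 2 treatment effects. The vector and vehicle groups are the controls of separate experiments, so transduction, the DMSO vehicle and the experiment cannot be told apart. The labels do not say whether the 2 experiments were cultured, prepared or sequenced together. The study describes its RNA editing comparison of these treatments as independent experiments, but no label states that the replicates were separate cultures, so p-values measure the spread between these libraries, which may be partly technical. The promoter that drove ADAR1 p150 and the number of clones were not given in the sources used here.

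Actin monomers assemble into filaments that push the cell edge forward, carry tension and anchor adhesion sites. Non-muscle cells make β-actin (Actb) and γ-actin (Actg1), cofilin (Cfl1) severs old filaments, and cortactin (Cttn) binds and stabilises branched networks. Filamin A (Flna) and the α-actinins (Actn1 and Actn4) link filaments into networks and bundles, and the heavy chain of non-muscle myosin IIA (Myh9) pulls on them. Talin (Tln1) binds integrins, and vinculin (Vcl) strengthens the link between talin and actin. In tumour cells these proteins are known for their part in shape, migration and invasion.

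β-actin and γ-actin are almost the same protein, and their coding sequences differ mainly by silent changes. The start of each coding sequence is shown because the differences are somewhat denser there than over the whole coding length. Capitals mark the 9 of the first 60 bases that differ (GENCODE M21, GRCm38, both on the minus strand). Some of these are not silent, since they put glutamate for aspartate or isoleucine for valine in γ-actin. Actb lies at chr5:142905627-142905686 and Actg1 at chr11:120348032-120348091 in these stretches.
Actb: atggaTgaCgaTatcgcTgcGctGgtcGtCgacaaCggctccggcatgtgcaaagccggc
Actg1: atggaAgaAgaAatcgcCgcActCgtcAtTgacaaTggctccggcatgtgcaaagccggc
Over the whole coding length of 1128 bases, 1000 bases were identical and 128 differed, an identity of 88.7%, and the longest identical run was 62 bases. Reads that fall within such a run cannot be assigned to either gene by sequence alone, so the split of counts between Actb and Actg1 carries that uncertainty. The rows Actb-ps1 and Actbl2, which are named after Actb, held 0 counts in every library.

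The total count ranged from 1101767 to 1537037 per library, each treated library was deeper than either of its controls, and AY036118, named after its values were known, held 44.43% to 50.29% of the counts. At this depth 3 counts stood for 2.11 to 2.739 CPM (counts scaled to a common TMM-normalised library total), and each of the 10 genes was above this floor in every library. The mean chi-square per gene between replicates was 1.42 to 1.67, above the 1 that sampling noise gives. Adar, the targeted gene, had 181 and 140 counts in the ADAR1 p150 libraries, 2 and 8 in the vector libraries, 5 and 5 under vehicle and 7 and 6 under 12-HETE, which matched the labels. Of 6 epithelial markers, 5 had a count. Krt8 (51 to 145 counts), Krt18 (42 to 150) and Krt19 (42 to 115), which encode keratins, were detected in every library, Epcam had 1 to 4 counts, Cldn4 0 to 4, and Cdh1, which encodes E-cadherin, was at 0 throughout. Their summed level was 217 to 284 CPM with vehicle, 197 to 210 with 12-HETE, 162 to 197 with vector and 145 to 225 with ADAR1 p150.

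All 10 genes averaged 10 or more counts per library and so were among the 6901 genes tested. The test was the quasi-likelihood F test of edgeR, its p-values were adjusted over all genes tested by the Benjamini-Hochberg method, and a gene passed at an adjusted p under 0.05. Levels below are normalised CPM, and differences are log2 fold changes with their standard error (SE). Per kilobase of exon, vehicle cells had 238 ± 39.9 CPM of Actb (SD, n = 2), followed by Actg1 at 32.3 ± 1.52, Actn4 at 28.0 ± 3.46, Flna at 18.3 ± 2.64, Myh9 at 13.3 ± 0.442, Cttn at 12.3 ± 0.272, Cfl1 at 11.5 ± 1.84, Actn1 at 7.83 ± 1.01, Tln1 at 5.42 ± 0.123 and Vcl at 4.07 ± 0.454. Actb stood far above the rest in every group, from 141 ± 24.4 CPM per kilobase with vector to 283 ± 62.2 with 12-HETE. Among the vehicle libraries, the neighbours Cttn and Cfl1 overlapped in this order (12.1 to 12.5 against 10.2 to 12.8), whereas Actg1 and Actn4 did not (31.2 to 33.4 against 25.6 to 30.5). The muscle actins were absent or nearly so, with 0 to 1 counts of Acta1, 0 of Actc1 and Actg2, and 5 to 12 of Acta2.

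The vector libraries were low for most of the 10 genes, and Flna was above its own control under both treatments. The plot of the genes by library shows each value.

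**Figure D1:**
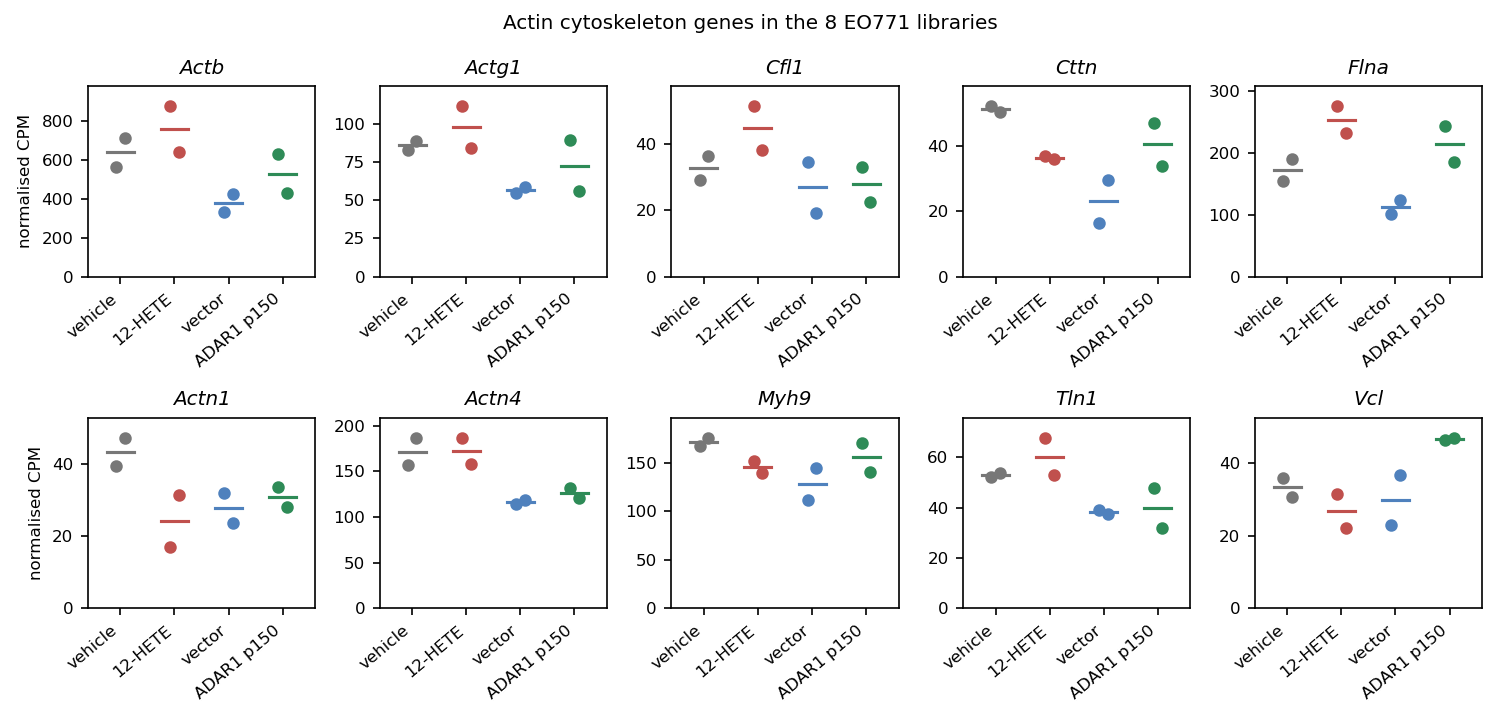
Normalised CPM (vertical axis, from 0, with its own scale in each panel) of the 10 genes in the 4 groups, where each point is 1 library and each bar the mean of 2. Actb sits at 332 and 425 with vector, below every other library.

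Actb, which encodes β-actin, was at 563 and 714 CPM under vehicle, 875 and 639 under 12-HETE, 332 and 425 in vector cells, and 630 and 430 in ADAR1 p150 cells. Both vector libraries were the lowest of the 8, although the second ADAR1 p150 library exceeded the higher of them only slightly. Actg1, which encodes γ-actin, was at 83.0 and 88.8 CPM under vehicle, 111 and 84.2 under 12-HETE, 54.8 and 58.5 in vector cells, and 89.3 and 55.9 in ADAR1 p150 cells. The 2 ADAR1 p150 libraries lay on either side, 1 near the vehicle level and 1 between the vector libraries.

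Cfl1, which encodes cofilin, was at 29.1 and 36.5 CPM under vehicle, 51.4 and 38.3 under 12-HETE, 34.7 and 19.2 in vector cells, and 33.1 and 22.7 in ADAR1 p150 cells. Only the 12-HETE libraries stood above their control, and the vector pair spanned the ADAR1 p150 pair. Cttn, which encodes cortactin, was at 52.2 and 50.6 CPM under vehicle, 37.1 and 36.0 under 12-HETE, 16.4 and 29.7 in vector cells, and 47.1 and 34.0 in ADAR1 p150 cells. Vehicle and 12-HETE replicates were close for Cttn and did not overlap, and the vector libraries, though far apart, were both below the other 6.

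Among the crosslinkers, Flna was at 155 and 190 CPM under vehicle, 275 and 232 under 12-HETE, 101 and 124 in vector cells, and 244 and 186 in ADAR1 p150 cells. Each treated pair was above its own control pair. Actn1 was at 39.4 and 47.3 CPM under vehicle, 17.1 and 31.4 under 12-HETE, 32.0 and 23.6 in vector cells, and 33.8 and 28.0 in ADAR1 p150 cells. Its vehicle libraries were the highest of the 8. Actn4 was at 157 and 187 CPM under vehicle, 186 and 159 under 12-HETE, 114 and 119 in vector cells, and 132 and 121 in ADAR1 p150 cells. The 2 experiments did not overlap for Actn4, since all 4 libraries of the transduced cells were below all 4 of the other experiment.

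Myh9, the myosin heavy chain, was at 168 and 176 CPM under vehicle, 152 and 139 under 12-HETE, 112 and 145 in vector cells, and 171 and 141 in ADAR1 p150 cells. Its group means ran from 129 ± 23.2 (vector) to 172 ± 5.72 (vehicle; SD, n = 2). The talin gene Tln1 was at 52.2 and 53.9 CPM under vehicle, 67.8 and 52.8 under 12-HETE, 39.3 and 37.6 in vector cells, and 47.8 and 31.7 in ADAR1 p150 cells. Vcl was at 36.0 and 30.7 CPM under vehicle, 31.4 and 22.2 under 12-HETE, 22.8 and 36.7 in vector cells, and 46.4 and 46.9 in ADAR1 p150 cells. The 2 highest Vcl libraries were those of ADAR1 p150.

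The empty vector and vehicle groups are both controls, and the comparison asks whether the 2 baselines had the same actin expression. Actb fell by 0.75 on the log2 scale in vector cells relative to vehicle cells (SE 0.14, 0.593 times the vehicle level, edgeR adjusted p = 0.0366). The other 9 genes did not pass, and their log2 fold changes ran from -1.15 for Cttn (SE 0.26, edgeR adjusted p = 0.0600) to -0.16 for Vcl (SE 0.27, edgeR adjusted p = 0.857). All 10 log2 fold changes were below 0, with a median of -0.58, whereas 51% of all genes tested were below 0 and their median was -0.0083. The 10 genes were chosen with earlier results of these data known. Some of them also moved together over the libraries (Actb with Actg1, Pearson r = 0.967), so they are not 10 independent observations. At an unadjusted p under 0.05 by edgeR, 7 of the 10 were lower, against 7.96% of all genes tested. Of the 6901 genes, 7 fell (0.101%) and 1 rose (0.0145%), so Actb was among 8 genes that passed. The others were the elongation factor gene Eef2 (-0.71), the fibronectin gene Fn1 (-0.59), Mtpn (-1.95), Rps2 (-0.80), Rpph1 (-0.83) and the histone genes H3c14 (-2.78) and H4c2 (3.58), each a log2 fold change with edgeR adjusted p = 0.0366 and each named after its values were seen. All 7 of these calls were lost with DESeq2 (adjusted p = 0.995) and with thinned counts. Fn1 also lost its call with RLE factors (edgeR adjusted p = 0.0609) and with no count minimum (0.156). Rpph1 lost its call with 10 counts in every library (edgeR adjusted p = 0.0686). H3c14 and H4c2 lost theirs in the fit of only the 4 libraries (edgeR adjusted p = 0.0515 and 0.0706). The calls of Eef2, Fn1, Rps2 and Rpph1 were also lost without vehicle replicate 5 or vector replicate 1. That of Mtpn was lost without any 1 of the 4 libraries. H3c14 lost its call without vehicle replicate 5 and H4c2 without vehicle replicate 4. Without vector replicate 1, H4c2 fell under the count minimum and was not tested. Fibronectin is an integrin ligand at the adhesion sites that talin and vinculin serve, and myotrophin, the product of Mtpn, inhibits the protein that caps actin filaments.

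Both vector libraries were below both vehicle libraries for 8 of the 10 genes, against 23.3% of all genes tested, and above both for 0, against 20.4%. Cfl1 and Vcl overlapped. After Actb, the log2 fold changes with the smallest errors were those of Actn4 (-0.56, SE 0.14), Flna (-0.61, SE 0.15) and Myh9 (-0.42, SE 0.14), with edgeR adjusted p = 0.0884, 0.0884 and 0.268. The γ-actin gene Actg1 (-0.60, SE 0.20), Actn1 (-0.65, SE 0.27), Tln1 (-0.47, SE 0.23) and Cfl1 (-0.29, SE 0.29) had edgeR adjusted p between 0.257 and 0.718. With a 2-fold minimum, the study's threshold, 0 of the 10 passed, as against 0.0435% of all genes. The summed epithelial markers were also lower in the vector libraries (162 to 197 CPM) than in the vehicle libraries (217 to 284), and their part in the result was not tested. In RNA from whole cultures, fewer cells of a kind and less RNA per cell cannot be told apart.

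The Actb call rested on single libraries and on the tool. It was lost without vehicle replicate 5 (edgeR adjusted p = 0.406), without vector replicate 1 (0.468), with counts thinned to the smallest total (0.0535) and with DESeq2 (0.995), within a range of 0.000161 to 0.995 over all alternatives. DESeq2 passed 0 of the 10 genes and 0 of all genes at adjusted p, and 4 of the 10 at an unadjusted p under 0.05, against 3.36% of all genes. Cttn passed without AY036118 (edgeR adjusted p = 0.0418) and without vector replicate 2 (0.00736), and Flna without vector replicate 2 (0.0441). The count of genes below 0 was 10 under each other alternative, and 9 without vector replicate 1 or without vector replicate 2.

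**Figure D2:**
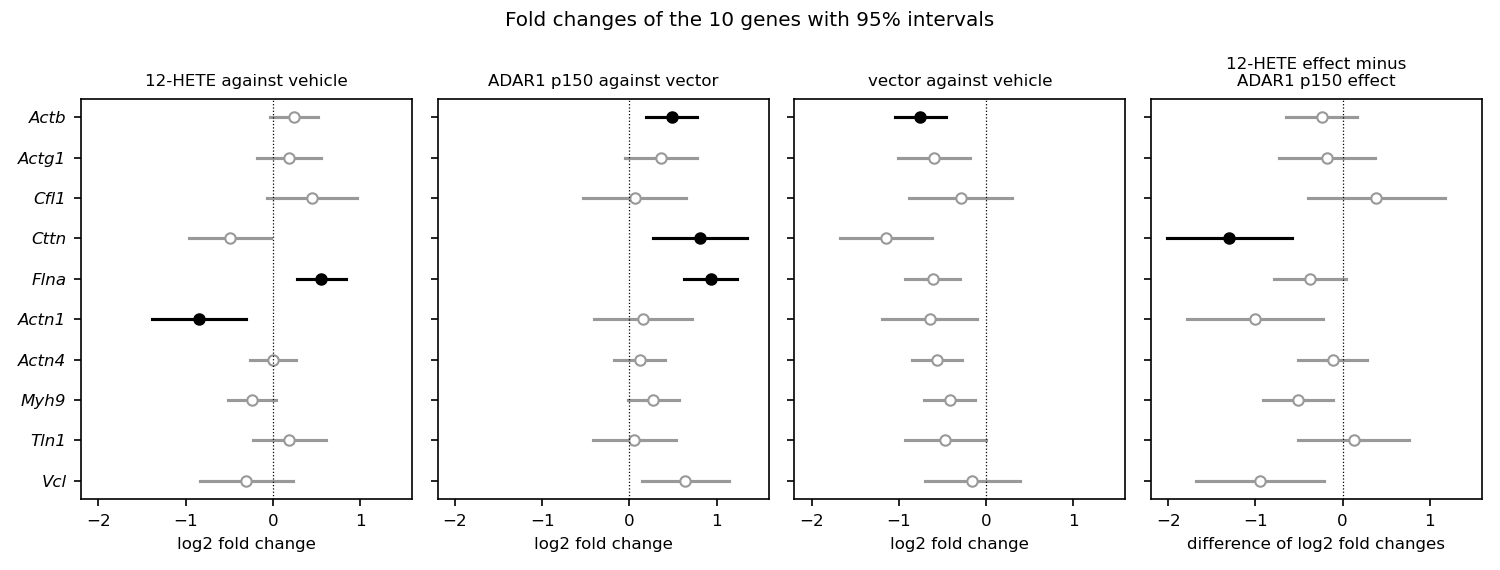
Log2 fold change (horizontal axis) of each gene in the 4 comparisons, with the 95% interval of the single gene as a line. Filled black points passed at an adjusted p under 0.05: Flna and Actn1 with 12-HETE, Actb, Cttn and Flna with ADAR1 p150, Actb in vector against vehicle, and Cttn in the difference.

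With 12-HETE, filamin A rose and α-actinin 1 fell, and no other member passed. Flna rose by 0.56 on the log2 scale (SE 0.14, 1.47-fold, edgeR adjusted p = 0.00186). Actn1 fell by 0.85 (SE 0.27, 0.556 times the vehicle level, edgeR adjusted p = 0.0141). The summed epithelial markers were at 197 to 210 CPM with 12-HETE, below both vehicle libraries. The summed leukocyte markers (13.6 to 15.3 against 23.1 to 25.7 CPM) and endothelial markers (0.766 to 2.14 against 6.64 to 8.56 CPM) were also below vehicle without overlap, and the fibroblast markers were above it (30.6 to 33.5 against 28.2 to 28.3 CPM). Of these markers, 0 endothelial, 1 leukocyte and 1 fibroblast gene reached the count minimum. In these libraries 3 counts stood for 2.14 to 2.568 CPM, so the endothelial sums were near the floor. Of all genes tested, 31.2% were below both vehicle libraries and 32.9% above both. The part of these 4 lists in the result was not tested. So 1 of 10 rose, against 15.1% of all genes tested, and 1 of 10 fell, against 14.2%, which is near the background. The median log2 fold change of the 10 was 0.097, with 0.0044 over all genes. Neither actin passed, at 0.25 for Actb (SE 0.14, 95% interval -0.03 to 0.52) and 0.19 for Actg1 (SE 0.18, 95% interval -0.18 to 0.56). Cfl1 (0.45, SE 0.25) and Tln1 (0.19, SE 0.21) were also above 0 without passing. Cttn (-0.49, SE 0.23, edgeR adjusted p = 0.110), Vcl (-0.31, SE 0.26) and Myh9 (-0.24, SE 0.14) were below 0, and Actn4 was at 0.0065 (SE 0.13) and, with RLE factors, at -0.018.

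Both 12-HETE libraries were above both vehicle libraries for 2 genes, Flna and Cfl1, against 32.9% of all genes tested. They were below both for 3, Cttn, Actn1 and Myh9, against 31.2%. None of the 10 passed with a 2-fold minimum, against 14.4% of all genes. The Flna call was lost without vehicle replicate 4 (edgeR adjusted p = 0.0678) or 12-HETE replicate 4 (0.0619), within a range of 0.000971 to 0.0678 over all alternatives. The Actn1 call was lost without vehicle replicate 5 (edgeR adjusted p = 0.0863), without 12-HETE replicate 4 (0.312) and with DESeq2 (0.142), within a range of 0.00308 to 0.312, and its log2 fold change was -0.45 without 12-HETE replicate 4. Without 12-HETE replicate 5, Actb passed as higher (0.46, edgeR adjusted p = 0.0318).

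With ADAR1 p150, 3 genes rose relative to vector: Flna, Cttn and Actb. Flna rose by 0.93 on the log2 scale (SE 0.15, 1.91-fold, edgeR adjusted p = 8.34e-06), and cortactin by 0.81 (SE 0.27, 1.75-fold, edgeR adjusted p = 0.0219). Actb rose by 0.49 (SE 0.14, 1.40-fold, edgeR adjusted p = 0.0110). The 3 of 10 that rose compare with 14.5% of all genes tested, and 0 of 10 fell, compared with 11.1%. All 10 log2 fold changes were above 0, as were 3765 of the 6901 genes tested. The median of the 10 was 0.32, with 0.066 over all genes, although Cfl1 was at -0.0096 with DESeq2 and Tln1 at -0.0015 with RLE factors. Vcl, at 0.64 (SE 0.25, edgeR adjusted p = 0.0524), was just outside the threshold. Actg1 (0.36, SE 0.20), Myh9 (0.28, SE 0.14), Actn1 (0.16, SE 0.28), Actn4 (0.12, SE 0.14), Cfl1 (0.062, SE 0.29) and Tln1 (0.059, SE 0.24) had edgeR adjusted p between 0.157 and 0.905.

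Both ADAR1 p150 libraries were above both vector libraries for 5 genes, Actb, Cttn, Flna, Actn4 and Vcl, against 33.7% of all genes tested. They were below both for 0, against 26.3%. With a 2-fold minimum 0 of the 10 passed, against 12.8% of all genes. The Flna call held under every alternative, including DESeq2, with adjusted p from 1.33e-08 to 0.00167. The Actb call was lost without vector replicate 1 (edgeR adjusted p = 0.190), without ADAR1 p150 replicate 1 (0.412) and with DESeq2 (0.392), within a range of 0.000497 to 0.412. Cttn lost its call without vector replicate 1 (edgeR adjusted p = 0.358), without ADAR1 p150 replicate 1 (0.223), with no count minimum (0.112) and with DESeq2 (0.206), within a range of 0.00866 to 0.358. Vcl passed without vector replicate 2 (edgeR adjusted p = 0.0305) and with 10 counts required in every library (0.0464). Actg1 passed without ADAR1 p150 replicate 2 (edgeR adjusted p = 0.0207).

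The vector libraries serve both as the control of ADAR1 p150 and as the lower side of the comparison with vehicle, so these 2 comparisons share them. For Actb the group means were 639 ± 107 CPM with vehicle, 379 ± 65.3 with vector and 530 ± 141 with ADAR1 p150 (SD, n = 2 each). The ADAR1 p150 mean lay between the 2 controls. Cttn followed the same order, at 51.4 ± 1.14, 23.1 ± 9.39 and 40.6 ± 9.28 CPM. Flna did not, since ADAR1 p150 cells, at 215 ± 41.1 CPM, had a higher mean than vehicle cells at 173 ± 24.8, with 113 ± 16.1 for vector. The ADAR1 p150 and vehicle libraries of Flna overlapped, at 186 to 244 against 155 to 190.

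Cortactin was the only member whose response differed between the treatments by the test of the difference itself. Its 12-HETE effect minus its ADAR1 p150 effect was -1.30 on the log2 scale (SE 0.35, 95% interval -2.02 to -0.58, edgeR adjusted p = 0.00933). It was also the only 1 of the 10 to pass with a 2-fold minimum. Of all genes tested, 8.29% passed as lower in this comparison, 6.68% as higher, and 8.33% with a 2-fold minimum. So 1 of the 10 passed, against 15% of all genes tested in either direction, which is near the background. The next differences were those of Actn1 (-1.01, SE 0.38), Vcl (-0.95, SE 0.36) and Myh9 (-0.51, SE 0.20), with edgeR adjusted p = 0.0743, 0.0732 and 0.0758. The difference for Flna, which rose under both treatments, was -0.38 (SE 0.20, 95% interval -0.79 to 0.04, edgeR adjusted p = 0.231). The Cttn call was lost without vector replicate 1 (edgeR adjusted p = 0.109), without ADAR1 p150 replicate 1 (0.0715) and with DESeq2 (0.0961), within a range of 0.00181 to 0.109. Without vector replicate 2, Vcl (edgeR adjusted p = 0.0264) and Myh9 (0.0302) passed, and so did Myh9 without ADAR1 p150 replicate 2 (0.0334) and Actn1 without 12-HETE replicate 5 (0.0237).

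A wider list held 147 other actin pathway genes of the table, of which 83 were tested. In vector against vehicle, 68 of 83 log2 fold changes (81.9%) were below 0, with 51% of all genes, and the median was -0.42. This list, too, was chosen with earlier results of these data known, and its genes share the same libraries. By edgeR none of the 83 passed at adjusted p and 24 did at an unadjusted p under 0.05, against 11.5% of all genes. DESeq2 gave 0 at adjusted p and 5 unadjusted, against 3.36% of all genes. Both vector libraries were below both vehicle libraries for 47 of the 83, against 23.3% of all genes, and above both for 3, against 20.4%. The lower values ran across roles: 8 of 9 monomer binding and severing genes, 10 of 11 genes of the Arp2/3 complex and its activators, 5 of 5 capping proteins, 14 of 16 crosslinkers and bundlers, 7 of 9 myosins and light chains and 7 of 8 tropomyosins and calponins were below 0. Focal adhesion proteins were the most evenly divided, with 6 of 10 below 0. Without vehicle replicate 5 the median was -0.25 and 60 of 83 were below 0.

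**Figure D3:**
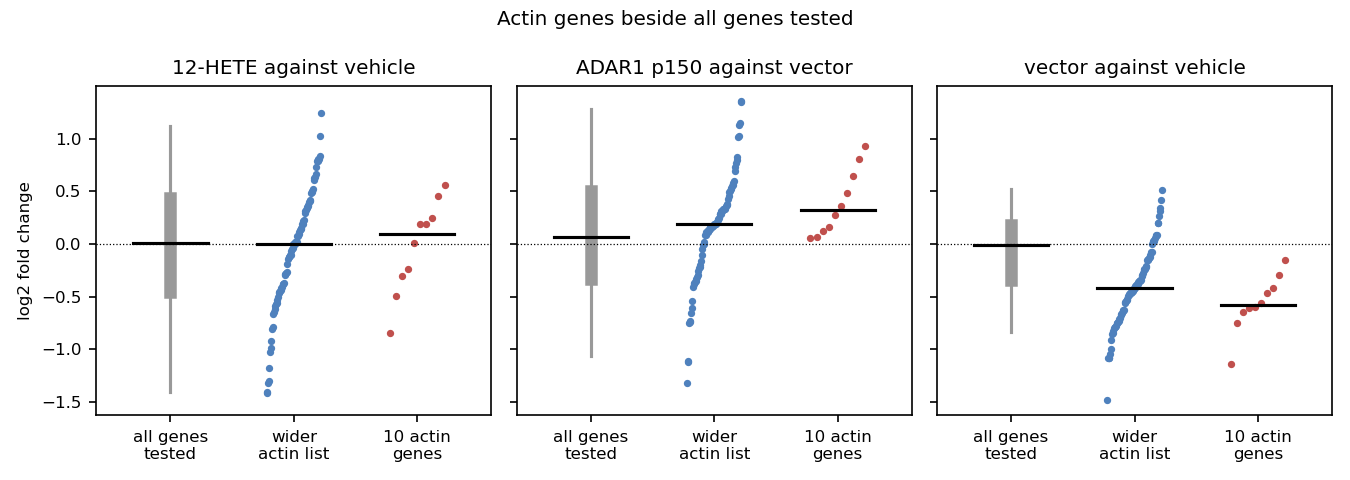
Log2 fold changes (vertical axis) in 3 comparisons for all 6901 genes tested (grey, thin line from the 5th to the 95th percentile and thick line from the 25th to the 75th), the 83 tested genes of the wider actin list (blue points) and the 10 genes (red points), with medians as black lines. In vector against vehicle the 10 genes lie below 0, with a median of -0.58.

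With 12-HETE, 6 of the 83 rose and 9 fell, so that 18.1% of the list passed, with 29.3% of all genes tested, and the median log2 fold change was -0.0008. The 6 that rose were Abi1 (1.24, SE 0.28), a subunit of the WAVE complex that switches on Arp2/3, its partner Cyfip1 (0.79, SE 0.13), the tropomyosin gene Tpm3 (0.81, SE 0.18), the actin-binding transgelin 2 (Tagln2, 0.81, SE 0.31), integrin-linked kinase (Ilk, 0.50, SE 0.12) and the integrin β1 gene Itgb1 (0.41, SE 0.15). Among those that fell were the kinase gene Src (-1.42, SE 0.18), which phosphorylates cortactin, Tpm1 (-1.30, SE 0.33), the severing protein gelsolin (Gsn, -1.03, SE 0.32), the GTPase gene Rhob (-0.81, SE 0.18) and the filamin C gene Flnc (-0.53, SE 0.19). Their edgeR adjusted p ran from 7.50e-08 for Src to 0.0459 for Tagln2. The calls of Abi1, Tpm3, Cyfip1, Ilk, Src and Rhob held under all 12 alternatives, which do not include the 2-fold minimum. Of these genes, only Abi1 and Src changed by 2-fold or more. Tpm1 lost its call only without 12-HETE replicate 5 (edgeR adjusted p = 0.0648), whereas Gsn lost its call without vehicle replicate 5 or either 12-HETE replicate and with DESeq2 (up to 0.131). Itgb1 and Tagln2 lost theirs under 10 and 9 of the 12 alternatives, among them DESeq2, RLE factors, the replicate block and leaving out any 1 of the 4 libraries, with adjusted p up to 0.268 and 0.314. Flnc lost its call without vehicle replicate 5 (edgeR adjusted p = 0.485) or 12-HETE replicate 5 (0.235), with DESeq2 (0.185), with the replicate block (0.0566) and with thinned counts (0.0701). Thus Flna rose while Flnc fell, from 70.2 and 108 CPM under vehicle to 67.0 and 55.9 under 12-HETE.

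With ADAR1 p150, 4 of the 83 rose and 5 fell, or 10.8%, with 25.6% of all genes, and the median was 0.19. Tagln2 (1.13, SE 0.35), the formin gene Fhod1 (0.77, SE 0.26) and the linker of actin and microtubules Macf1 (0.60, SE 0.17) rose. Tpm1 (-1.12, SE 0.34), Src (-0.75, SE 0.16), the Arp2/3 subunit gene Arpc1b (-0.74, SE 0.21) and Ilk (-0.36, SE 0.12) fell. Their edgeR adjusted p ran from 0.000621 for Src to 0.0261 for Fhod1. The Src call held under all 13 alternatives, which do not include the 2-fold minimum that its change did not reach. With DESeq2 the other 6 lost theirs, at adjusted p = 0.179 for Tagln2, 0.284 for Fhod1, 0.149 for Macf1, 0.106 for Tpm1, 0.0650 for Arpc1b and 0.0794 for Ilk. With no count minimum Tagln2 (edgeR adjusted p = 0.0834), Fhod1 (0.171) and Macf1 (0.0988) lost theirs, and with the replicate block Fhod1 (0.0537). Without vector replicate 1, Fhod1 (edgeR adjusted p = 0.229), Macf1 (0.104), Arpc1b (0.0952) and Ilk (0.196) lost theirs, without vector replicate 2 Tagln2 (0.190), Tpm1 (0.0779) and Fhod1 (0.0606), and without ADAR1 p150 replicate 1 Fhod1 (0.130), Macf1 (0.138), Ilk (0.175), Tagln2 (0.0900) and Tpm1 (0.0672). Each treatment against its own control gave the same direction for Tagln2, Tpm1 and Src, and the opposite for Ilk. Src was at 99.3 and 108 CPM under vehicle, 38.5 and 39.1 under 12-HETE, 110 and 101 in vector cells, and 61.9 and 63.5 in ADAR1 p150 cells, so its 2 control groups overlapped. In the difference between the effects, Abi1 (1.44, SE 0.42) and Ilk (0.86, SE 0.17) passed as higher, and Macf1 (-0.73, SE 0.24) was among those that passed as lower. Ilk kept this call under all 16 alternatives, while those of Abi1 and Macf1 were lost without ADAR1 p150 replicate 1 (edgeR adjusted p = 0.0673 and 0.160). Abi1 also lost its call with DESeq2 and without vehicle replicate 4, 12-HETE replicate 4 or vector replicate 2 (up to 0.115). Macf1 lost it under 7 of the 16, with DESeq2, no count minimum, the replicate block and without vehicle replicate 5, 12-HETE replicate 5 or vector replicate 1 as well (up to 0.210). Exons of Abi1, Cyfip1, Ilk, Fhod1 and Arpc1b overlap exons of another gene on the opposite strand, and whether counting used strand was not given in the sources used here.

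Between the 2 libraries of a group, most of the actin genes shifted in the same direction. Between the 2 ADAR1 p150 libraries, 9 of the 10 genes were lower in replicate 2, with a median log2 ratio of -0.428. Actg1 (-0.671) and Tln1 (-0.584) led, and Vcl was at 0.013. Between the 12-HETE libraries, 9 of 10 were lower in replicate 5 (median -0.301), the exception being Actn1 at 0.856. In the vehicle group 8 of 10 were higher in replicate 5 (median 0.174), and in the vector group 7 of 10 were higher in replicate 2 (median 0.193). Over the 2574 genes that averaged 40 counts or more, the share higher in the second library was 65.0% for ADAR1 p150, 59.8% for 12-HETE, 40.9% for vehicle and 50.1% for vector. In the wider list 20, 29, 61 and 47 of 83 were higher, in the same order of groups. Each group had only 2 libraries, so these shifts enter every comparison above.

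**Figure D4:**
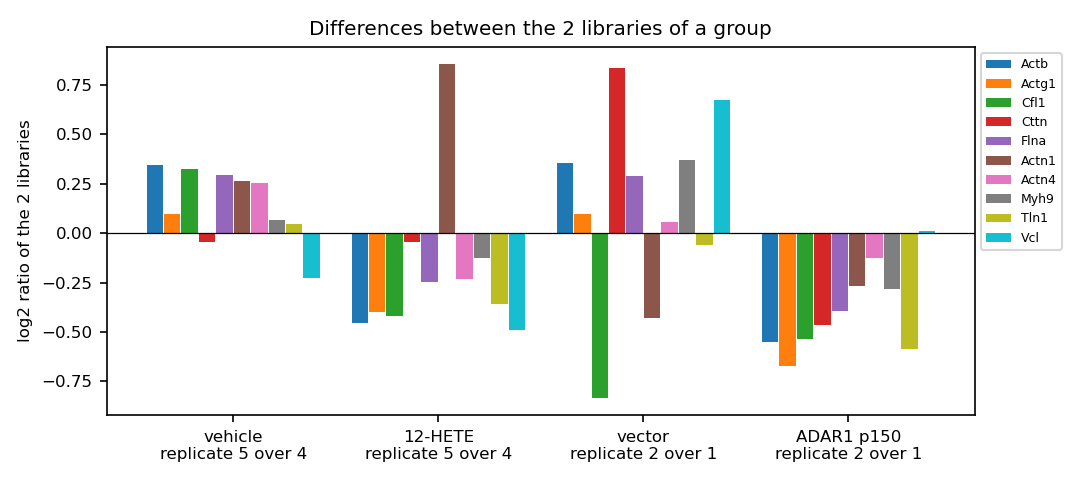
Log2 ratio of the second to the first library of each group (vertical axis), with 1 bar for each of the 10 genes. In 12-HETE and ADAR1 p150 9 of 10 bars point down, and in vehicle 8 of 10 point up.

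Over the 8 libraries, the closest pairs were Actb with Actg1 (Pearson r = 0.967), Cttn with Myh9 (0.962) and Actg1 with Tln1 (0.945), and Cfl1 with Vcl was the least alike (-0.501). The genes outside the 10 whose levels were most like the mean of the members, out of 1266 that averaged 100 counts or more, were Fn1 (r = 0.953), the spectrin gene Sptbn1 (0.933), annexin A2 (Anxa2, 0.903), Fat1 (0.895) and the spectrin gene Sptan1 (0.892). These are descriptions of 8 libraries that share a normalisation and fall into 4 groups. The mean of the standardised levels was lowest in the 2 vector libraries, at -1.126 and -0.751, followed by ADAR1 p150 replicate 2 at -0.497, and the remaining libraries lay between 0.144 and 0.713.

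Several of the genes lie beside or across another transcribed gene, which bears on what a count per gene holds. Actb is on the minus strand at chr5:142903115-142906754 in GENCODE M21 (GRCm38). The long non-coding RNA gene Gm38733, on the plus strand at chr5:142895304-142903515 in RefSeq GRCm38.p6, overlaps the last 401 bases of Actb. Gm38733 was chosen after its values were seen. It had a mean count of 16626, or 22.6 times that of Actb, with 13168 and 13103 counts under vehicle, 21213 and 21735 under 12-HETE, 14129 and 13137 in vector cells, and 17712 and 18812 in ADAR1 p150 cells.

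Gm38733 rose with 12-HETE (0.52, SE 0.089, edgeR adjusted p = 1.85e-05, at most 0.018 over 12 alternatives), where Actb did not pass. With ADAR1 p150 it was at 0.13 (SE 0.088, edgeR adjusted p = 0.302), where Actb rose. In vector against vehicle it was at 0.14 (95% interval -0.04 to 0.32, edgeR adjusted p = 0.555), an interval that does not reach the -0.75 of Actb. For every 100 counts of Gm38733, Actb had 5.0 and 6.57 under vehicle, 5.78 and 3.84 under 12-HETE, 2.58 and 3.7 in vector cells, and 5.05 and 3.02 in ADAR1 p150 cells. The vector libraries were below the vehicle libraries on this ratio. Gm38733 was picked with its values known and did not pass between these groups, so the ratio restates the Actb values. Whether counts of Gm38733 hold reads of Actb was not tested.

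**Figure D5:**
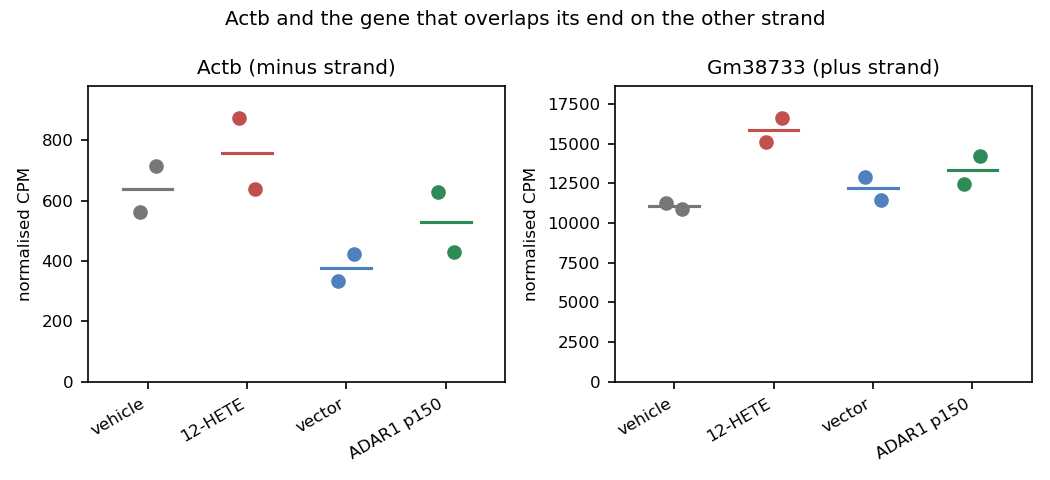
Normalised CPM (vertical axes, from 0, on different scales) of Actb on the left and Gm38733 on the right in the 4 groups, with points for libraries and bars for the mean of 2. Gm38733 rises with 12-HETE and its vector and vehicle libraries lie side by side, while Actb is lowest with vector.

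Exons of 5 other members overlap exons on the opposite strand in GENCODE M21. For Actn1 the partners are Gm47766 (363 bases) and Gm47767 (88 bases), which were not analysed here. The overlap was 316 bases with Capn12 for Actn4, 468 with Snx32 for Cfl1, 360 with Creb3 for Tln1 and 2090 with Ap3m1 for Vcl. The mean counts of these 4 partners were 291.6, 93.6, 20.9 and 254.8, as against 185.6, 42.1, 60.8 and 43.4 for the members. None of them passed in any of the 4 comparisons. In vector against vehicle, Capn12 was at -0.033 (SE 0.13) where Actn4 was at -0.56, and Ap3m1 was at 0.10 (SE 0.12) where Vcl was at -0.16. With ADAR1 p150, Ap3m1 was at 0.089 (SE 0.12) where Vcl was at 0.64. Creb3 was at -0.60 (SE 0.36) where Tln1 was at -0.47, in vector against vehicle, and Snx32 at 0.36 (SE 0.17) where Cfl1 was at -0.29. Gm51446, a non-coding gene inside the span of Actn4 on the other strand, rose with ADAR1 p150 (0.34, SE 0.10, edgeR adjusted p = 0.0125), where Actn4 was at 0.12, but its call was lost under 8 of 13 alternatives. These were leaving out vector replicate 1, vector replicate 2, ADAR1 p150 replicate 2 or AY036118, fitting the 4 libraries alone, RLE factors, DESeq2 and no count minimum, with adjusted p up to 0.401. Gm38978, another non-coding gene inside the span of Actn4, had a mean count of 140.9, and its strand was not given. It passed as lower in the difference between effects (-0.60, SE 0.21, edgeR adjusted p = 0.0450), where Actn4 was at -0.11. This call was not checked under the alternatives. Whether any of these counts hold reads of the members was not tested.

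Many cytoskeletal genes carry a CArG box, the binding element of serum response factor, whose cofactor is released when actin monomers are used up. The CArG box, a run of A and T bases between a CC and a GG, was searched on both strands in the 250 bases upstream of each start site in RefSeq GRCm38.p6. Of the 8 members with a promoter sequence (all but Actb and Cttn), 2 held it, as did 482 of 32851 promoters (1.47%). These 2 windows of the promoters are shown with the element in capitals, for Actg1 at chr11:120348556-120348605 on the minus strand and for Vcl at chr14:20929151-20929200 on the plus strand.
Actg1: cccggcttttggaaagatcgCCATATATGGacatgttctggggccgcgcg
Vcl: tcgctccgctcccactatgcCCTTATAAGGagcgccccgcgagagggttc
The element began 90 bases upstream of the start site in Actg1 and 227 in Vcl. In vector against vehicle, Actg1 was at -0.60 and Vcl at -0.16, and over the 8 libraries their levels had a Pearson r of -0.044. A match of letters is a description and not a binding site.

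Most markers of other cell types had few counts, while Dcn, Cd68 and Csf1r (5 to 13 counts) were detected in every library. Of 7 leukocyte markers 5 had a count, led by Cd68 with 10 to 26 counts, and their sum was at 23.1 to 25.7 CPM with vehicle, 23.6 to 26.5 with vector, 13.6 to 15.3 with 12-HETE and 22.7 to 28.1 with ADAR1 p150, and Cd3e was at 0 throughout. Of 7 fibroblast markers 5 had a count, led by Dcn with 8 to 57 counts, and their sum was at 28.2 to 28.3, 9.13 to 30.6, 30.6 to 33.5 and 24.9 to 42.2 CPM in the same order, with Col1a2 and Lum at 0 throughout. Of 5 endothelial markers 4 had a count, and their sum was at 6.64 to 8.56, 5.48 to 7.86, 0.766 to 2.14 and 1.41 to 9.07 CPM in that order, with Emcn at 0 throughout. Of 6 muscle markers 5 had a count, with sums of 1.71 to 3.32, 1.75 to 5.48, 0.766 to 5.71 and 5.29 to 5.63 CPM, and Myh1 at 0 throughout. The vector and vehicle groups, which differed in Actb, overlapped in the sums of fibroblast, leukocyte, endothelial and muscle markers. Their epithelial sums did not overlap, at 162 to 197 CPM with vector and 217 to 284 with vehicle.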

How the data were processed

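Raw counts per gene for 8 RNA-seq libraries were analysed as the authors deposited them. According to the methods, the authors used prinseq to take out duplicates, STAR for alignment to GRCm38 and featureCounts for fragments per gene. Removing duplicates can lower the counts of highly expressed genes most. The labels name other extraction and library kits than the methods, and whether counting used strand is not given in the sources used here.

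The minimum was a mean count of 10 per library, as in the study, which 6901 of 49997 genes met. TMM factors and the quasi-likelihood test came from edgeR 4.0.16 (R 4.3.3, limma 3.58.1), in 1 fit of the 8 libraries with a coefficient per group. The SE is the log2 fold change divided by the square root of F. Intervals are 95% and cover a single gene. A gene passed at an adjusted p under 0.05, and the study's threshold adds a 2-fold change.

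Totals were 1101767 to 1537037, and a floor is 3 counts, for counting error only. The fit was tested on simulated data with larger changes than those of the 10 genes and without shifts shared by genes between replicates. It therefore does not show how well changes of the members' size are found. Correlations used log2(CPM + 0.5). Exon lengths and overlaps are from GENCODE M21, other positions from RefSeq GRCm38.p6. All 10 members are named. Of the wider list, up to 6 genes per direction and treatment averaging 20 counts or more are named, and both Mkl1 and Mkl2 had no row under that symbol. A few listed genes are left out of the text and not reported here. The members and lists were chosen with earlier results of these data known.

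The alternatives were DESeq2 1.42.0, RLE factors, no minimum, 10 counts in every library, fitting the 4 libraries of a comparison alone and leaving out AY036118. Others were thinning to the smallest total, a replicate block, the 2-fold minimum and leaving out each library in turn. The number of alternatives given for a single gene does not include the 2-fold minimum.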

Additional observations from a re-analysis of the deposited data

Results flagged for a closer look

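Cttn was marked because its response differed between the 2 treatments by the test of the difference. Its 12-HETE effect minus its ADAR1 p150 effect was -1.301 on the log2 scale (edgeR adjusted p = 0.00933). Both 12-HETE libraries were below both vehicle libraries, at 37.1 and 36.0 against 52.2 and 50.6 CPM, and both ADAR1 p150 libraries were above both vector libraries, at 47.1 and 34.0 against 16.4 and 29.7 CPM. The cause was not tested.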

How the results depend on the processing

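With 12-HETE, 2 members, 15 genes of the wider actin list and 2021 genes in all passed. With the 2-fold minimum these were 0, 7 and 991, with DESeq2 1, 8 and 1030, and with 1 library left out 0 to 3, 8 to 16 and 1412 to 1578. With ADAR1 p150, 3, 9 and 1766 passed. The 2-fold minimum gave 0, 4 and 884, DESeq2 1, 1 and 810, and leaving out 1 library 1 to 4, 4 to 13 and 1187 to 1361. In vector against vehicle, 1 member and 8 genes passed. The 2-fold minimum gave 0 and 3, DESeq2 0 and 0 (4 and 232 at an unadjusted p under 0.05), thinning 0 and 0 (7 and 705), and leaving out AY036118 2 and 17. Requiring 10 counts in every library gave 4 genes, no minimum 19, and leaving out 1 library 0 to 3 members and 2 to 43 genes. In the difference between effects, 1, 4 and 1033 passed. The 2-fold minimum gave 1 gene of the list and 575 in all, DESeq2 0 (1 unadjusted), 1 and 449, 10 counts in every library 2 members, thinning 2 members, and leaving out 1 library 0 to 3, 2 to 7 and 762 to 934.

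The direction reversed only for log2 fold changes that had not passed. For Actn4 with 12-HETE it was -0.018 with RLE factors, -0.018 with DESeq2, -0.010 with 10 counts in every library, -0.045 with no minimum, -0.034 with 4 libraries, -0.068 without AY036118, and -0.12 to 0.13 with 1 library left out. With ADAR1 p150, Cfl1 was at -0.0096 with DESeq2, -0.047 with no minimum, -0.015 with 4 libraries, -0.016 thinned, and -0.36 to 0.53 with 1 library left out. Tln1 was at -0.0015 with RLE factors, -0.0065 with DESeq2, -0.049 with no minimum, -0.017 with 4 libraries, -0.076 thinned, and -0.26 to 0.33 with 1 library left out. Leaving out 1 library also gave -0.017 to 0.38 for Actg1 with 12-HETE, -0.0056 to 0.67 for Actg1 and -0.095 to 0.38 for Actn1 with ADAR1 p150, and -0.77 to 0.11 for Cfl1 and -0.52 to 0.14 for Vcl in vector against vehicle. In the difference it gave -0.49 to 0.049 for Actb, -0.47 to 0.20 for Actg1, -0.087 to 0.76 for Cfl1, -0.23 to 0.0088 for Actn4 and -0.14 to 0.45 for Tln1. Of the members' values under the other alternatives, 293 kept their direction and side of the threshold, 15 reversed, 7 lost a call and 5 gained 1. For genes named outside the members, chosen for this after seeing the data, no direction reversed. The causes were not tested.

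Correlations between same-numbered libraries were -0.0774 and -0.112. With 2 libraries a group, counting noise draws such values towards 0, so they cannot show whether the libraries were paired. With a replicate block, 2 members passed with 12-HETE (12 of the list, 1788 in all), 3 with ADAR1 p150 (8 and 1507) and 1 in the difference (3 and 859), and with the crossed pairing, chosen after seeing the data, 4 (13 and 1858) with ADAR1 p150 and 1 (5 and 1118) in the difference. No paired analysis was possible for vector against vehicle because these groups share no replicate number. With 2 libraries a group and mean counts of 39.4 to 60.8, Actn1, Cfl1, Vcl, Cttn and Tln1 were measured, between 2 groups, with SE of 0.21 to 0.29, so changes of that size were not detectable.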
